A study of Rattus norvegicus with 15 samples.

Results

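The urea cycle was represented by 7 genes: Nags, Cps1, Otc, Ass1, Asl, Arg1 and Slc25a15. They were taken as every probe that carries one of these symbols in the 15 array files, which gave 9 probes of 45598, and 7 genes of 20524 with a symbol. Nags, Cps1, Otc, Ass1, Asl and Arg1 had 1 probe each and Slc25a15 had 3. All 9 probes were well above background on all 15 arrays, a mark set by the extraction software, and none was saturated, so every member passed the filter on dim probes in every group.

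The arrays hold RNA of hepatocytes isolated from adult female Wistar rats. The cells were stained with the DNA dye Hoechst33342 and sorted by flow cytometry into fractions with a DNA content of 2c, 4c or 8c, 2c being that of an unreplicated diploid genome. Each of 5 experiments gave 1 array per fraction, n = 5 per group, and the rats of experiments 1 to 5 were 12, 14, 6, 5 and 6 weeks old. No genetic change or drug treatment is given for any group. A cell sorted as 4c can be tetraploid or a diploid cell after replication, and likewise for 8c, and the labels do not give the number of rats behind an experiment. Levels are log2 intensities relative to the 75th percentile of the bright probes of the same array, so 0 is that percentile. They describe a transcript's share of the labelled RNA, and RNA per cell was not measured. In such bulk samples fewer cells of a type and less RNA per cell cannot be told apart.

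The urea cycle turns ammonia released by amino acid breakdown into urea, which the kidney excretes. Its first steps run in the mitochondria of hepatocytes and the later ones in the cytosol, with ornithine and citrulline carried between both. In the liver lobule the cycle is strongest around the portal vein, while the last rim of cells around the central vein captures remaining ammonia as glutamine.

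The measurements rest on what the probes hybridise to, so the probes of 5 members are shown, 5′ to 3′ on the transcript strand, with positions on the rn4 assembly as the array files give them. The Cps1, Otc, Ass1 and Nags probes span 1329, 5206, 1353 and 167 bases of genome with 60 bases of probe, so each crosses at least 1 splice junction, while the Asl probe lies in 60 contiguous bases. Each of these 5 sequences has at least 1 reading frame without a stop codon. No annotation of rn4 was used here, so exon numbers are not stated.
Nags probe, chr10:91213944-91214110: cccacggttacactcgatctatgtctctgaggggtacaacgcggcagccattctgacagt
Cps1 probe, chr9:66002449-66003777: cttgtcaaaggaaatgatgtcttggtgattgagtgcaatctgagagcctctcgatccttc
Otc probe, chrX:24619355-24624560: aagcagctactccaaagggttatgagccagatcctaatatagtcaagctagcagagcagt
Ass1 probe, chr3:10620727-10622079: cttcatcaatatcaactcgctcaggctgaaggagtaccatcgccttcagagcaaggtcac
Asl probe, chr12:27720030-27720089: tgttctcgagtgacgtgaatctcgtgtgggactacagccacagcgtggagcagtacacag
The Arg1 probe lies at chr1:21011150-21011209. The probes of Slc25a15 lie at chr16:74300243-74300302, chr16:74302088-74302147 and chr16:74302898-74302957, and the second of these, the brightest, stands for the gene.

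Nags and Otc had the most similar patterns of any pair of members, as described with their values, so their promoters are shown as well, 250 bases before the transcript start from RefSeq on the GRCr8 assembly, Nags on the plus and Otc on the minus strand. Of the 7 members 6 had an entry. Both strands were searched for TATAAA, as in a TATA box, for CCAAT, as in a CCAAT box, for GGGCGG, as in a GC box, and for CAAAG, a short core of HNF4A sites, and capitals mark the matches.
Nags promoter, chr10:87598266-87598515: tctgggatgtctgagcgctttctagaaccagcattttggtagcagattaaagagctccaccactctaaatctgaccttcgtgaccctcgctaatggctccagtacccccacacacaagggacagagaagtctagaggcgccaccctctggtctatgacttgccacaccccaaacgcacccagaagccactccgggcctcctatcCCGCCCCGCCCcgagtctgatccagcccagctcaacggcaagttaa
Otc promoter, chrX:15202474-15202723: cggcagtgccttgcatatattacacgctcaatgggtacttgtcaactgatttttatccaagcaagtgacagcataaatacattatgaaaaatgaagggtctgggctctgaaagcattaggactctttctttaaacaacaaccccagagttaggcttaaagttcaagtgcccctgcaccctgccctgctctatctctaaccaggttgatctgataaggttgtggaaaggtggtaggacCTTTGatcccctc
Nags held 2 overlapping matches to GGGCGG, which begin 46 and 41 bases before the start, and Otc held 1 match to CAAAG, 13 bases before it. Neither promoter shared a searched motif with the other. Among the other members, Cps1 held CAAAG at 81 and 67 bases, Ass1 TATAAA at 60, Asl GGGCGG at 249 and Slc25a15 CCAAT at 209 bases before the start. Of 33469 promoters of this length, 12.93% held TATAAA, 34.02% CCAAT, 30.47% GGGCGG and 48.24% CAAAG.

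Markers of other cells moved with the fractions, and some arrays stood apart. Of tested markers, 6 of 7 for Kupffer cells, 5 of 6 for stellate cells and 4 of 7 for sinusoidal endothelial cells fell in 8c against 2c. Of all features 1.53% were called lower. Each of these lists held 10 genes, of which the rest were not tested. A probe was tested if well above background on at least 5 of 15 arrays, which the 2c arrays alone can supply. Markers could thus enter by being high in 2c, so no conclusion is drawn from these counts. The summed levels use every marker on the array. In linear units of the array's 75th percentile, the Kupffer cell markers summed to 0.747 to 14.6 in 2c, 0.159 to 0.609 in 4c and 0.124 to 0.546 in 8c. Stellate cell markers summed to 1.07 to 10.1, 0.245 to 0.734 and 0.238 to 0.832 in the same order, and endothelial markers to 0.340 to 1.94, 0.0915 to 0.327 and 0.0998 to 0.274. The 8 hepatocyte markers were well above background on every array and summed to 622 to 1009 in 2c, 671 to 1002 in 4c and 618 to 910 in 8c, so the defining transcripts of the labelled cell type were present. Of these 8, 0 passed in 8c against 2c, where 2.34% of all features were called. Alb, albumin, had a difference of −0.14 (SE 0.14, limma adjusted p = 0.688). Transcripts of pancreatic acinar cells, such as digestive enzymes, were high on 6 arrays: 2c and 8c of experiment 1, all 3 fractions of experiment 2 and 8c of experiment 3. The median level of the 15 acinar markers was −0.19 to 5.90 on those arrays and −8.68 to −7.10 on the other 9, and their summed level ranged from 16.1 to 1060 in 2c, 13.2 to 182 in 4c and 16.0 to 620 in 8c. On the cholangiocyte list 2 of 6 markers were tested and 1 fell, and the neutrophil and erythroid lists had 0 tested members. Without the 6 acinar-rich arrays 0 markers were called on any of these lists. The Kupffer, stellate and endothelial medians in 8c against 2c were then −3.48, −4.05 and −2.69, over 5, 4 and 3 tested markers. With all arrays they were −3.62, −3.95 and −2.40, over 7, 6 and 7. The sets of markers thus differ, and both passed the filter described above, so no conclusion is drawn from these medians. Here and below, the setting without the acinar-rich arrays kept the 8c arrays of experiments 4 and 5 alone. Its precision is therefore low, and acinar transcripts cannot be told apart from the choice of experiments.

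The fitted differences of the urea cycle genes between fractions were at most 0.33 on the log2 scale. Arg1 was the single member that passed the test, 1.26-fold higher in 8c than in 2c. All 7 members had a positive fitted difference in 8c against 2c, from 0.02 for Cps1 to 0.33 for Arg1 on the log2 scale, with a median of 0.16 beside −0.02 over all 17040 tested features. Without the 6 acinar-rich arrays 3 of 7 were positive, and the median was −0.0016. The 8c arrays left in that setting were those of experiments 4 and 5. No member passed in 4c against 2c or in 8c against 4c. The 2c, 4c and 8c values overlapped for every member in each comparison.

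**Figure D1:**
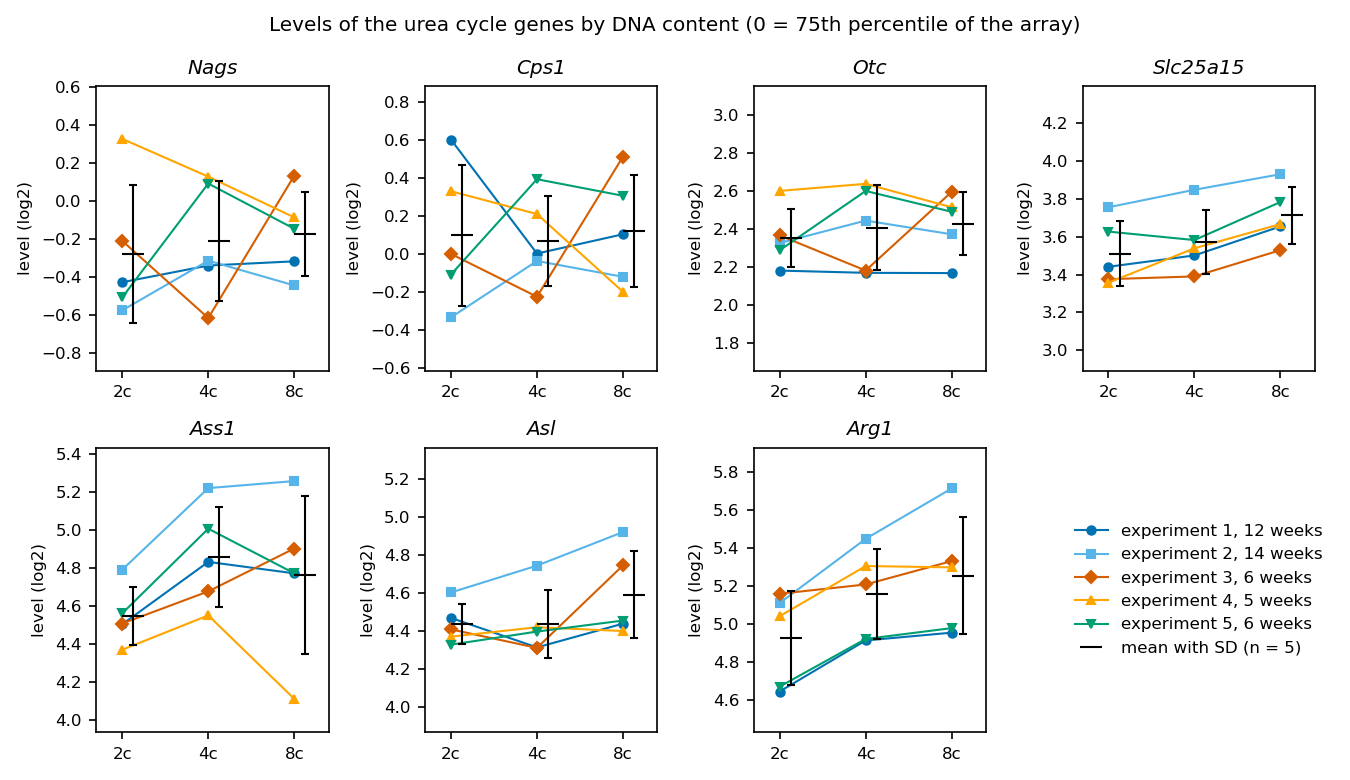
Level of each urea cycle gene (vertical axis, log2 relative to the array's 75th percentile, every panel spanning the same range of 1.5) in the 2c, 4c and 8c fractions. Coloured lines join the 3 fractions of 1 experiment and black bars are the mean with SD (n = 5). Arg1 is lowest in 2c in all 5 experiments and Slc25a15 highest in 8c in all 5, while the lines of Nags and Cps1 cross.

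Nags, Cps1 and Otc act in the mitochondria. Nags makes N-acetylglutamate, the activator that Cps1 requires. Its levels in experiments 1 to 5 were −0.43, −0.58, −0.21, 0.33 and −0.51 in 2c. They were −0.34, −0.32, −0.62, 0.13 and 0.09 in 4c, and −0.32, −0.45, 0.13, −0.09 and −0.15 in 8c. The fractions had no common order: 2c was lowest in 3 experiments and 8c highest in 2. The fitted difference of 8c against 2c was 0.11 (SE 0.16, adjusted p = 0.81, limma with Benjamini-Hochberg adjustment), positive in 4 of 5 experiments.

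Cps1, carbamoyl phosphate synthetase, joins ammonia and bicarbonate and controls entry into the cycle. In 2c its levels were 0.60, −0.33, 0.00, 0.33 and −0.11 in experiments 1 to 5. In 4c they were 0.00, −0.04, −0.22, 0.21 and 0.39, and in 8c 0.10, −0.12, 0.51, −0.20 and 0.31. Experiments 1 and 4 had their highest level in 2c, experiment 3 in 8c and experiments 2 and 5 in 4c. Fold differences of 8c over 2c from 0.761 to 1.36 lay within the 95% interval, and the fitted difference was 0.02 (SE 0.19, limma adjusted p = 0.972). Of the variation of Cps1 over the 15 arrays 0.60% lay between the fractions and 25.9% between the experiments, beside medians over all features of 9.39% and 54.6%.

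Otc joins carbamoyl phosphate and ornithine to citrulline. It stood at 2.18, 2.33, 2.37, 2.60 and 2.29 in 2c, experiments 1 to 5. The 4c levels were 2.17, 2.45, 2.18, 2.64 and 2.60, and the 8c levels 2.17, 2.37, 2.60, 2.52 and 2.49. Experiment 1 was the lowest of the 5 in each fraction, by a narrow margin in 4c. Between 8c and 2c the fitted difference was 0.08 (SE 0.09, limma adjusted p = 0.747), with 3 of 5 experiments positive.

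These 3 mitochondrial enzymes varied together within experiments. With each experiment's mean removed, the Pearson correlation over the 15 arrays was 0.95 for Otc with Nags, 0.82 for Cps1 with Otc and 0.77 for Cps1 with Nags, beside a median of 0.57 over the 21 pairs of members. In experiments 2 and 5 the 2c array was lowest and the 4c array highest for all 3 genes, and in experiment 3 the 4c array was lowest and the 8c array highest for all 3. The 8c array of experiment 3 lay on a different slide from its 2c and 4c arrays. Among members that act in the cytosol, Asl had correlations of 0.69, 0.69 and 0.59 with Cps1, Otc and Nags. Ass1 had 0.45, 0.63 and 0.65, and Arg1 0.09, 0.35 and 0.30, in the same order. The arrays of an experiment share its number and age, and the genes of an array share its scaling, so these correlations are descriptions without a test.

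Slc25a15 encodes the mitochondrial ornithine carrier, which brings ornithine in and takes citrulline out. Its 2c levels in experiments 1 to 5 were 3.44, 3.75, 3.38, 3.36 and 3.63. The 4c levels were 3.50, 3.85, 3.39, 3.54 and 3.58, and the 8c levels 3.65, 3.93, 3.53, 3.67 and 3.78. The 8c fraction was the highest in all 5 experiments, and levels rose from 2c through 4c to 8c in 4 of them. The difference of 8c against 2c lay between 0.15 and 0.31 in the 5 experiments, and the fit gave 0.20 (SE 0.06, limma adjusted p = 0.116), which did not pass. In all features, 7.27% were higher in 8c than in 2c in every experiment. Between 8c and 4c the fit gave 0.14 (SE 0.06, limma adjusted p = 0.616), again positive in 5 of 5 experiments, as were 8.94% of all features. Its residual SD of 0.047 stood at the 0.387 percentile of all features.

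The 3 Slc25a15 probes did not give one answer. The third probe had a mean difference of 0.20 (SE 0.10, n = 5) in 8c against 2c, as large as the second, but positive in 4 of 5 experiments. The first probe had −0.60 (SE 0.35, n = 5), positive in 1 of 5. The first probe was dim, with a signal from 7.63 to 39.7, against 3735 to 9190 for the second and 391 to 1047 for the third. When probes of a gene were averaged in place of taking the brightest, the Slc25a15 difference of 8c against 2c was −0.07 (limma adjusted p = 0.837).

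**Figure D2:**
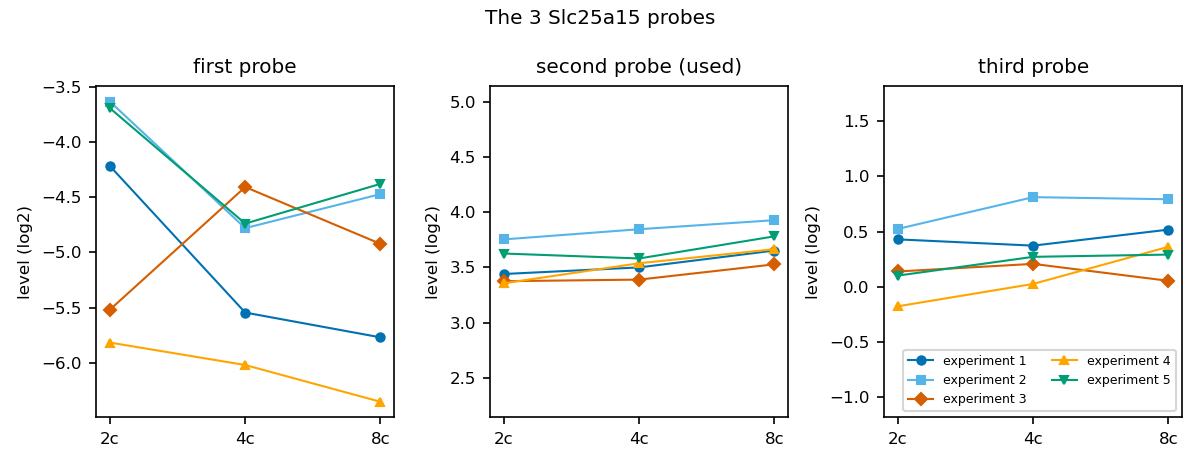
Level (vertical axis, log2 relative to the array's 75th percentile, each panel spanning 3 units) of the 3 Slc25a15 probes in order of position, by fraction. Lines join the arrays of 1 experiment. The second probe is higher in 8c than in 2c in all 5 experiments and the third in 4, while the first falls from 2c to 8c in 4 of 5 experiments and rises in experiment 3.

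Ass1, Asl and Arg1 act in the cytosol. Ass1 joins citrulline and aspartate to argininosuccinate. Its levels in 2c were 4.50, 4.79, 4.51, 4.37 and 4.56 in experiments 1 to 5. In 4c they were 4.83, 5.22, 4.68, 4.55 and 5.01, and in 8c 4.77, 5.26, 4.90, 4.11 and 4.77. The 4c fraction lay above 2c in all 5 experiments, by 0.17 to 0.45. The fitted difference of 4c against 2c was the largest of any member, 0.31 (SE 0.11, 1.24-fold, limma adjusted p = 0.192), and did not pass. Of all features 5.28% were higher in 4c in every experiment. For 8c against 2c it was 0.22 (SE 0.11, limma adjusted p = 0.375), with experiment 4 going the other way at −0.26.

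Asl splits argininosuccinate into arginine and fumarate. It measured 4.47, 4.60, 4.41, 4.37 and 4.33 in 2c, experiments 1 to 5. The 4c levels were 4.31, 4.75, 4.31, 4.42 and 4.40, and the 8c levels 4.44, 4.92, 4.75, 4.40 and 4.46. Experiment 2 was high in all 3 fractions. The 2c and 4c means were both 4.44 (SD 0.11 and 0.18, n = 5) and the 8c mean was 4.59 (SD 0.23, n = 5). The 8c against 2c difference of 0.16 (SE 0.08, limma adjusted p = 0.396) did not pass, and experiments 2 and 3 held its largest values, 0.32 and 0.34.

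Arg1, arginase, releases urea from arginine and returns ornithine to the cycle. Its levels in 2c were 4.64, 5.11, 5.16, 5.04 and 4.67 in experiments 1 to 5, with a mean of 4.92 (SD 0.25). In 4c they were 4.91, 5.45, 5.21, 5.30 and 4.92, with a mean of 5.16 (SD 0.24). In 8c they were 4.95, 5.71, 5.33, 5.30 and 4.98, with a mean of 5.25 (SD 0.31). The 2c array was the lowest of its experiment in all 5, and levels rose from 2c through 4c to 8c in 4. Experiments differed more than fractions, with 69.0% of the variation between experiments and 25.2% between fractions, and the groups overlapped although every experiment moved the same way.

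Arg1 rose in 8c against 2c by 0.33 on the log2 scale (SE 0.07, limma adjusted p = 0.0419), 1.26-fold with a 95% interval from 1.13 to 1.40. That made 1 of 7 members called, where 2.34% of all features were called, 0.810% as higher. The difference was 0.31, 0.60, 0.17, 0.26 and 0.31 in experiments 1 to 5. Between 2c and 4c the difference was 0.23 (SE 0.07, limma adjusted p = 0.153), and 8c against 4c gave 0.10 (SE 0.07, limma adjusted p = 0.739).

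The Arg1 call sat close to the threshold. Its difference was positive in 34 of 34 other settings, between 0.25 and 0.41, and passed in 8 of them. Leaving out any 1 experiment ended the call (adjusted p from 0.0604 to 0.194). Leaving out any single array also ended it, except the 2c or the 4c array of experiment 3 (adjusted p over all single arrays from 0.0369 to 0.116). The arrays lay on 2 slides that hold several groups each, and the 8c array of experiment 3 lay apart from its 2c and 4c arrays. The Arg1 difference was 0.41 within slide 1 (adjusted p = 0.492) and 0.28 within slide 2 (adjusted p = 0.503). Without the 6 arrays rich in acinar transcripts it was 0.25 (adjusted p = 0.768), and without the experiment as a block it was 0.33 (adjusted p = 0.921). The part of the Kupffer, stellate and endothelial cell transcripts in the Arg1 difference was not tested.

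**Figure D3:**
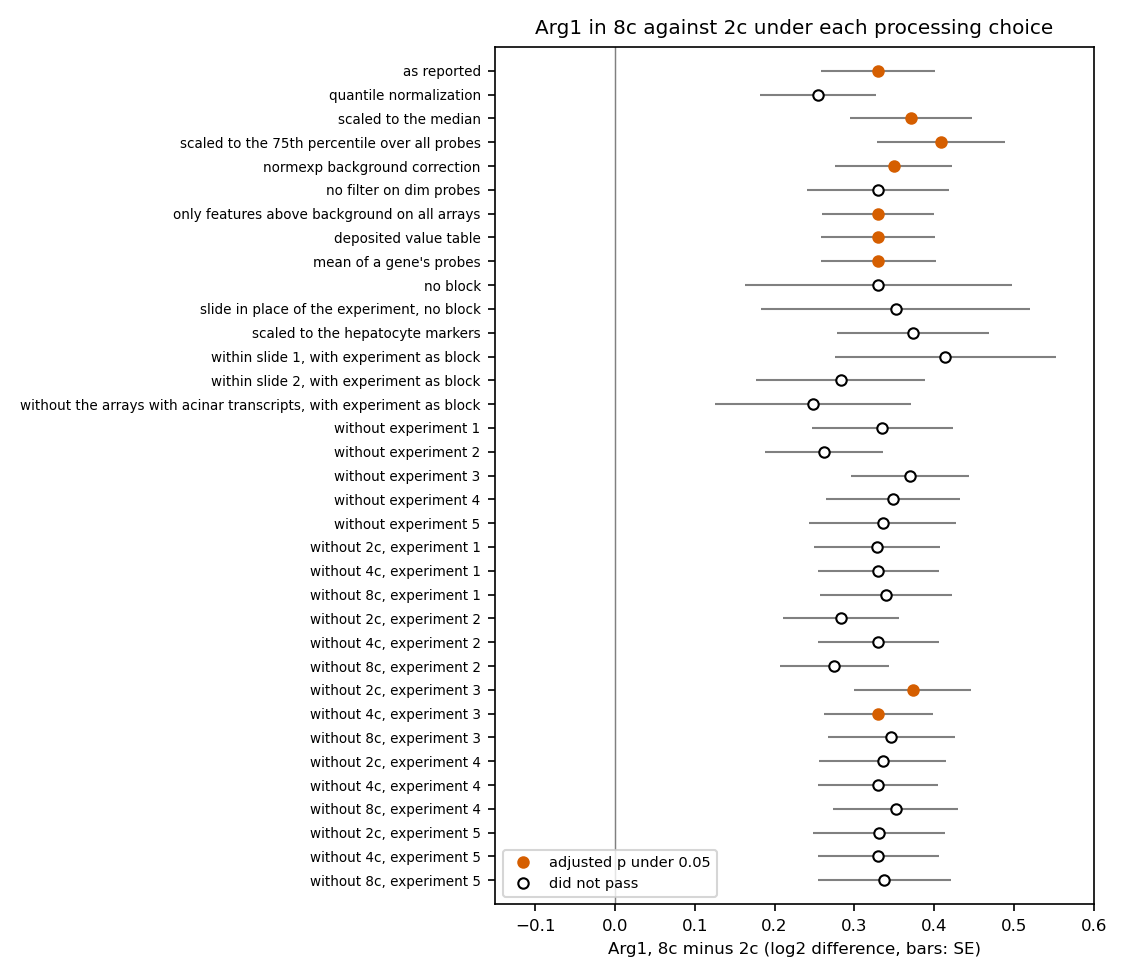
Difference of Arg1 in 8c against 2c (horizontal axis, log2, bars are SE) as reported and under 34 other settings, one per line. Filled orange points have an adjusted p under 0.05 and open points do not. The estimate stays between 0.25 and 0.41 while the call is made in 8 of the 34.

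In the other comparisons the intervals show what sizes remain possible. For 4c against 2c, where 1.26% of all features were called, 0 of 7 members passed with limma. Of the members 2 had an unadjusted p under 0.05 (Arg1 and Ass1), as had 2707 of all 17040 features. The 95% intervals of the 7 members lay between 0.734-fold and 1.46-fold. In 8c against 4c, where 0.640% of features were called, 0 of 7 passed, and the intervals lay between 0.777-fold and 1.38-fold. There 1 member had an unadjusted p under 0.05 (Slc25a15), as had 1329 of all 17040 features. For 4c against the mean of 2c and 8c, where 0.405% were called, 0 of 7 passed. Ass1 alone of the members had an unadjusted p under 0.05, with a difference of 0.20 (SE 0.09, limma adjusted p = 0.439). Of all 17040 features 1931 had an unadjusted p under 0.05. An interaction of the 8c-2c contrast with age gave 0 calls (0% of features) among the members, 0 with an unadjusted p under 0.05, and 0 among all features, 820 with an unadjusted p under 0.05. Age moves with slide in these experiments.

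**Figure D4:**
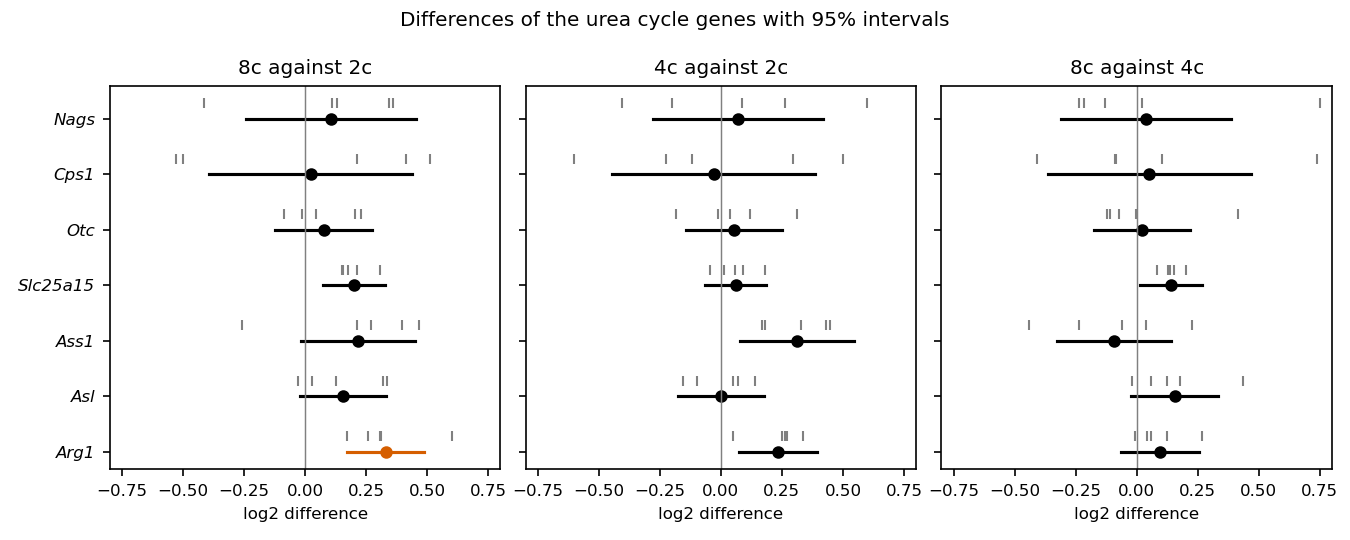
Fitted log2 difference of each urea cycle gene (points) with its 95% interval (lines), with 1 panel for each pair of fractions. Grey ticks are the differences within the 5 experiments, and orange marks an adjusted p under 0.05. Arg1 in 8c against 2c is the one coloured entry, and the ticks of Nags, Cps1, Otc and Asl lie on both sides of 0 in every panel.

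The experiments disagreed about the cycle as a whole. In 8c against 2c, 7 of 7 members were higher in experiments 2, 3 and 5, 4 of 7 in experiment 1 and 3 of 7 in experiment 4. The median member difference was 0.11, 0.21, 0.34, −0.09 and 0.21 in experiments 1 to 5. Experiment 4, of the youngest rats, held the lowest value, and the dependence on age did not pass for any member. In experiment 3 the 8c array lay on slide 2 and the 2c and 4c arrays on slide 1. Fraction and slide cannot be told apart there, while each other experiment lay on a single slide. Without experiment 3 the member median was 0.11 in 8c against 2c and −0.077 in 8c against 4c. With all arrays these medians were 0.16 and 0.052. Without the 6 arrays rich in acinar transcripts, 0 of the 15975 features tested were called in 8c against 2c, with 8c arrays left from experiments 4 and 5 alone.

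Of 16 tested genes that supply ammonia, bicarbonate or aspartate, 0 rose and 1 fell in 8c against 2c, where 0.810% of all features were called higher and 1.53% lower, and the median difference was 0.00. The gene that fell was Glud1, glutamate dehydrogenase, which releases ammonia from glutamate in the mitochondria. Its 2c levels were 2.97, 2.72, 2.81, 2.96 and 2.82 in experiments 1 to 5, and its 8c levels 2.47, 2.41, 2.41, 2.77 and 2.57. It was lower in 8c in all 5 experiments, by 0.33 on the fitted log2 scale (−0.33, SE 0.06, 1.26-fold lower, limma adjusted p = 0.0271). The call held in 11 of 34 other settings and was lost without any 1 experiment, where adjusted p reached 0.141, and without either the 2c or the 8c array of experiments 1, 2, 3 and 5, or the 4c array of experiment 4. Of the 14 other settings it was lost in 9. These were scaling to the all-probe 75th percentile or to the hepatocyte markers, normexp and no filter on dim probes. The rest were no block, slide as the block, either slide alone and leaving out the acinar-rich arrays.

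Gls2, the liver glutaminase that releases ammonia from glutamine, was higher in 8c in 5 of 5 experiments, with a difference of 0.36 (SE 0.09, limma adjusted p = 0.0829) that did not pass. Slc25a13, citrin, exports the aspartate that Ass1 uses. It had a difference of 0.15 (SE 0.07, limma adjusted p = 0.317), also positive in 5 of 5 experiments.

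Among 15 tested genes that use or move ornithine and arginine, 0 rose and 1 fell in 8c against 2c, where 1.53% of all features were called lower, and the list's median was −0.11. The gene that fell was Oat, ornithine aminotransferase, which draws ornithine away from the cycle and is found in the rim of hepatocytes around the central vein. Its levels in 2c were 3.75, 4.12, 3.69, 3.40 and 4.32 in experiments 1 to 5. They were 3.16, 3.36, 2.80, 2.56 and 3.34 in 4c, and 2.81, 2.60, 2.31, 2.49 and 3.12 in 8c. Every experiment ran down from 2c through 4c to 8c, and the lowest 2c array, 3.40, lay above the highest 8c array, 3.12. Of all features 0.887% were lower in 8c without overlap.

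Oat fell by 1.19 in 8c against 2c (SE 0.11, 2.29-fold lower, limma adjusted p = 0.00107) and by 0.81 in 4c against 2c (SE 0.11, 1.76-fold lower, limma adjusted p = 0.0147). The 8c against 2c call held in 31 of 34 other settings. It was lost within slide 1 (−1.26, adjusted p = 0.129), within slide 2 (−1.06, adjusted p = 0.33) and without the 6 acinar-rich arrays (−1.06, adjusted p = 0.232), where the difference stayed negative. The 4c against 2c call held in 23 of 34 and was lost in those 3 settings too, without the block, with slide as the block and with no filter on dim probes. It was also lost without experiment 3 or 5, without the 2c array of either, or without the 4c array of experiment 5 (adjusted p up to 0.166).

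Of 11 tested pericentral genes of glutamine synthesis, ammonium transport and their zone, 7 fell in 8c against 2c and 0 rose, with a median of −0.95, where 1.53% of all features were called lower. The list held 13 genes. Like the other lists it was chosen with earlier results of these data known, so the count is a description only. Without the 6 acinar-rich arrays 0 of 11 were called and the median was −0.85. Glul, glutamine synthetase, makes glutamine from the ammonia that the cycle leaves. Its levels were 3.19, 3.89, 3.77, 4.23 and 4.53 in 2c, experiments 1 to 5. In 4c they were 1.27, 1.18, 1.27, 2.70 and 2.11, and in 8c 0.09, −0.12, −0.51, 2.20 and 1.74. The 2c arrays all lay above the 4c and 8c arrays, and the 8c level of Glul was 9.46-fold below that in 2c (limma adjusted p = 0.00107), where 0.933% of features were lower in 4c than in 2c without overlap. Slc1a2, a glutamate transporter, fell (adjusted p = 0.00107), but was well above background on 3 of 5 arrays in 8c, so its size depends on the background treatment. The difference was −3.27 from the processed signal and −1.62 with normexp background correction. Slc13a3, a dicarboxylate transporter, fell by 1.85 (adjusted p = 0.00853) and Rhbg, an ammonium transporter, fell by 1.67 (adjusted p = 0.00528). With normexp the Rhbg difference was −0.64 (adjusted p = 0.0445). Slc13a3 had −0.97 within slide 2 and −1.07 without the acinar-rich arrays. Without the experiment as a block the calls of Rhbg (adjusted p = 0.199) and Slc13a3 (0.332) were lost, as they were within slide 1 (0.364 and 0.0722). Within slide 2 and without the acinar-rich arrays the Glul call was lost (−2.41, adjusted p = 0.33, and −2.50, adjusted p = 0.187), as were those of the other 3. The Slc13a3 call was also lost without experiment 1 or experiment 3 (highest adjusted p = 0.0591).

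Of 14 tested periportal genes outside the cycle, 3 rose in 8c against 2c and 0 fell, where 0.810% of all features were called higher, and all 14 had a positive difference with a median of 0.26. This list too was chosen with earlier results known, so these counts are descriptions only. Without the acinar-rich arrays 0 were called and the median was 0.17. Hsd17b13, a lipid droplet protein, rose by 0.55 (limma adjusted p = 0.0078). Hal and Uroc1 act in succession in histidine breakdown, which releases ammonia and glutamate. Hal rose by 0.54 (adjusted p = 0.0335) and Uroc1 by 0.50 (adjusted p = 0.0078). Each of these was higher in 8c in 5 of 5 experiments. The Hsd17b13 call was lost without experiment 5 (adjusted p = 0.0606), and that of Uroc1 without experiment 2 or 5 (up to 0.0798). The Hal call held in 12 of 34 other settings and was lost without any of experiments 2 to 5 (up to 0.148), without any single array of experiments 2, 4 or 5, and without the 2c or 8c array of experiment 3. Without the experiment as a block the calls of Uroc1 (adjusted p = 0.154) and Hal (0.996) were lost, while that of Hsd17b13 held (0.0472). The Hal call was also lost with slide as the block (0.457), with quantile normalization and with no filter on dim probes. Within either slide none of the 3 was called.

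Hal and Uroc1 were also the 2 genes called in 8c against 2c among 30 tested genes of amino acid catabolism. None of the 30 fell and their median was 0.08, where 0.810% of all features were called higher and 1.53% lower. None of 14 tested regulators of the cycle passed in any comparison. Of all features 2.34% were called in 8c against 2c, 1.26% in 4c against 2c and 0.640% in 8c against 4c. The brightest of them, Gcgr, the glucagon receptor, had a difference of 0.17 in 8c against 2c (SE 0.07, limma adjusted p = 0.293).

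**Figure D5:**
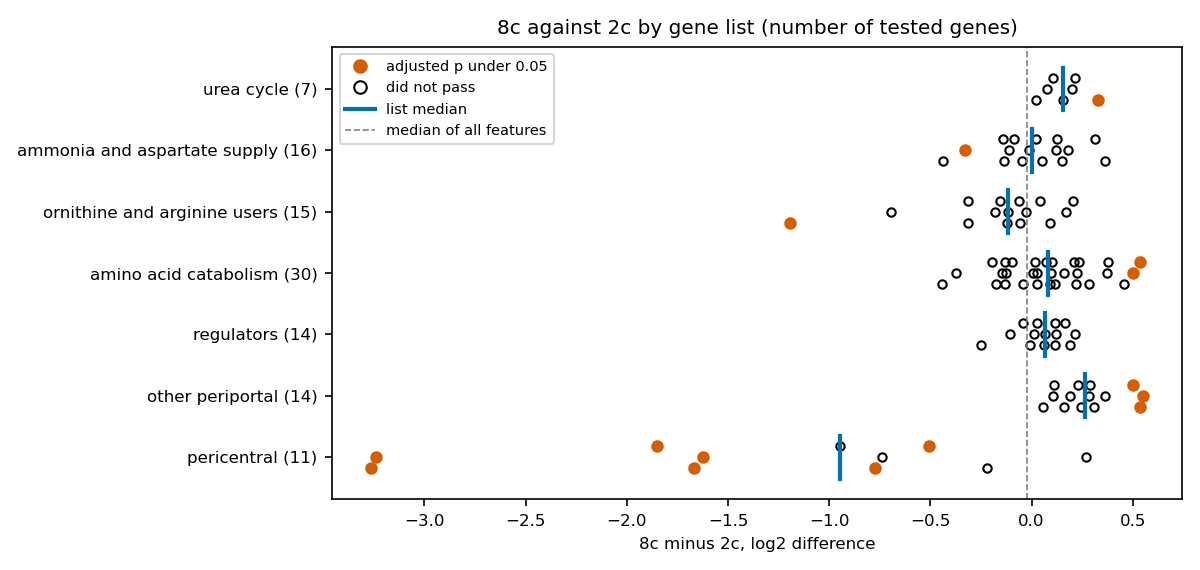
Fitted difference of 8c against 2c (horizontal axis, log2) for every tested gene of 7 lists, 1 point per gene, with the number of tested genes in brackets. Filled orange points passed at an adjusted p under 0.05, blue bars are list medians and the dashed line is the median of all features, −0.02. The urea cycle genes lie between 0.02 and 0.33, and their median of 0.16 lies between those of the periportal list, 0.26, and the pericentral list, −0.95. The medians of all the other lists lie between these values as well.

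The genes with the pattern most like each member were found among 11397 tested genes with a symbol, by the Pearson correlation over the 15 arrays with the experiment means removed. For Nags they were Ninj1 (0.99) and Tpi1l1 (0.97), for Cps1 Ankzf1 (0.95) and Plod1 (0.92), and for Otc Pef1 (0.96) and Lgals5 (0.96). For Slc25a15 they were Ndufb8 (0.95) and Cdkn1a (0.95), for Ass1 Carm1 (0.95) and Abat (0.95), and for Asl Eif3h (0.93) and Gnmt (0.93). For Arg1 they were Tgif1 (0.94) and Apoc2 (0.94). No other gene of the cycle could be found, since members were left out of the search, and each value is the highest or next highest of 11397. Between members the correlation was 0.74 for Arg1 with Slc25a15 and 0.70 for Arg1 with Ass1, and the lowest was −0.11 for Cps1 with Slc25a15.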

How the data were processed

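Gene expression was measured on 15 one-colour Cy3 Agilent arrays, 1 per sorted fraction and experiment. The deposited array files hold the authors' linear intensity of every spot. Their processed signal was used, which had its background subtracted by Agilent Feature Extraction 11.5.1.1, per the file headers (10.7.3.1 per the submitters' processing notes). It was not normalized between arrays. The deposited value table held the same intensities and served as an alternative. Of 62976 spots per array, 4259 controls and 264 to 539 outlier spots were left out, and spots of a probe were averaged. Between 39.5% and 47.3% of probes were well above background, and the number of arrays limits the precision.

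Signals were taken to log2 and from each array its own 75th percentile was subtracted, computed over 16194 probes that were well above background throughout. A probe was tested if well above background on at least 5 of 15 arrays, and a gene was represented by its brightest such probe. With R 4.3.3, lmFit and eBayes of limma 3.58.1 fitted the DNA content with the experiment as a block on all 15 arrays. The tests were two-sided, adjusted after Benjamini and Hochberg over 17040 features at 0.05, and were tested on simulated data. Nothing says whether an experiment pooled rats. The block removes differences in level between experiments, so p-values rest on how far the differences between fractions vary from experiment to experiment. The titles number the experiments. With group means removed, arrays with the same number correlated with a median of 0.59 (0.04 to 0.79, 15 pairs), and other arrays with −0.16. The lowest of these pairs is under 0.1, and the block was set from the design text, which names independent experiments.

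The members and gene lists were chosen with earlier results of these data known. Named were all members, up to 4 genes per other list that passed in a pairwise comparison by the size of 8c against 2c (otherwise the brightest), always Glul, Oat, Gls2, Slc25a13 and Alb, and the 2 genes most correlated with each member. Alternatives covered scaling, normexp background correction (offset 50), the filter, the deposited table, probe averaging, the block, the slides and left-out arrays. After seeing the data, scaling to the hepatocyte markers and list counts without the 6 acinar-rich arrays were added.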

Additional observations from a re-analysis of the deposited data

Results flagged for a closer look

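The Asl level of the 4c array of experiment 2, 4.75, lay apart from the other 4 arrays of its group, which ranged from 4.31 to 4.42. It was the 1 group with such a gap among 21 groups of 5 (7 members in 3 fractions), and chance gives about 1 in 20 groups. Experiment 2 also held the highest Asl level in 2c (4.60) and in 8c (4.92), and its 3 arrays were among the 6 rich in acinar transcripts. The part of those transcripts in it was not tested.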

How the results depend on the processing

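The Arg1 difference in 8c against 2c kept its direction in all 34 other settings, but the count of members called in that comparison went from 1 to 0 with quantile normalization (Arg1 adjusted p = 0.123), with no filter on dim probes (0.211, more features tested), without the replicate block (0.921), with slide as the block (0.584), when scaled to the hepatocyte markers (0.0986), within slide 1 (0.492), within slide 2 (0.503) and without the 6 acinar-rich arrays (0.768). It was 0 to 1 when an experiment or array was left out. With 1 call in 8c against 2c and 0 in the other 4 comparisons as reported, the other 4 counts stayed 0 in every setting. The call was kept when arrays were scaled to their median (adjusted p = 0.0335), to the all-probe 75th percentile (0.0268), with normexp (0.0449), with features above background on all arrays (0.0408), with the deposited table (0.0417) and with averaged probes (0.0438).

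No other member passed in any setting, and these log2 differences changed sign. In 8c against 2c, Cps1 was −0.019 with slide as the block, −0.15 within slide 1, −0.058 within slide 2 and −0.13 without the acinar-rich arrays, Otc −0.023 within slide 1 and −0.0016 without the acinar-rich arrays, Ass1 −0.024 within slide 2 and −0.048 without those arrays, Nags −0.026 within slide 2 and −0.13 without those arrays, and Slc25a15 −0.067 with the mean of its probes. In 4c against 2c, Cps1 was 0.0030 scaled to the median, 0.039 scaled to the all-probe 75th percentile, 0.19 within slide 2 and 0.052 without the acinar-rich arrays. Within slide 1 the 4c against 2c differences of Otc, Asl and Nags were −0.026, −0.037 and −0.019, Nags was −0.0018 without the acinar-rich arrays and Slc25a15 −0.11 with the mean of its probes. In 8c against 4c, Otc was −0.013 with quantile normalization, −0.030 with slide as the block, −0.12 within slide 2 and −0.057 without the acinar-rich arrays, Nags −0.042, −0.23 and −0.13 in the last 3 of these, Cps1 −0.25 within slide 2 and −0.18 without those arrays, and Ass1 0.023 within slide 1. With 1 experiment or array left out, the ranges that cross 0 were −0.12 to 0.16 for Cps1 and −0.012 to 0.24 for Nags in 8c against 2c, −0.16 to 0.11 for Cps1, −0.064 to 0.22 for Nags, −0.010 to 0.13 for Otc and −0.036 to 0.049 for Asl in 4c against 2c, and −0.12 to 0.18 for Cps1, −0.14 to 0.14 for Nags, −0.077 to 0.070 for Otc and −0.17 to 0.0081 for Ass1 in 8c against 4c. The cause was not tested.

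Over all features, 8c against 2c called 399, between 101 and 528 with an experiment or array left out, and 39 without the replicate block. Of these calls 138 were higher and 261 lower as reported, 177 and 201 with quantile normalization, 186 and 213 scaled to the median, and 224 and 189 scaled to the all-probe 75th percentile. The other comparisons called 215, 109, 69 and 0 features as reported, and 3, 0, 0 and 0 without the block. With an experiment or array left out these counts ranged from 0 (without experiment 3) to 548 (without the 2c array of experiment 4), from 40 (without experiment 4) to 142 (without the 8c array of experiment 2), from 0 (without experiment 3) to 133 (without the 2c array of experiment 4), and from 0 to 0. For 8c against 2c the lowest count was without experiment 5 and the highest without the 4c array of experiment 3.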
